A study of Rattus norvegicus with 22 samples.

Results

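SREBP regulators is the name used here for genes that act in lipid synthesis, sterol transport or the degradation of lipoprotein receptors. The 8 genes are Srebf1, Srebf2, Scap, Insig1, Insig2, Stard4, Mylip and Mlxipl. They were chosen by name from the 17172 genes of the count table, and all 8 were among the 12875 genes with enough reads to be tested. The counts came from RNA sequencing of the right hippocampus, the side of the injury, of 14 adult male Sprague-Dawley rats. Rats received either a moderate lateral fluid percussion, a pressure pulse on the dura that models traumatic brain injury (TBI), or a sham operation with the same craniectomy and anesthesia and no pulse. Tissue was taken at day 1 (2 sham and 4 TBI rats) or day 14 (4 sham and 4 TBI rats), so every control had also undergone surgery. No rat was unoperated, and the study compared injured with sham rats at each day.

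SREBPs are transcription factors made as membrane proteins of the endoplasmic reticulum. When sterols are scarce, the escort protein SCAP, encoded by Scap, carries them to the Golgi, where proteases release the active part. The INSIG proteins hold SCAP back when sterols are plentiful. SREBP-2, from Srebf2, mainly drives sterol synthesis genes. SREBP-1, from Srebf1, mainly drives fatty acid synthesis genes, and its transcript is also induced by the oxysterol receptors (LXR). Stard4 encodes a cytosolic sterol carrier that is itself an SREBP-2 target. Mylip encodes an LXR-induced ubiquitin ligase that marks lipoprotein receptors for degradation, and Mlxipl encodes ChREBP, a glucose-sensing factor that shares lipogenic targets with SREBP-1. In the adult brain, cholesterol is made locally, largely in glia, because plasma lipoproteins do not cross the blood-brain barrier. None of these proteins was measured, and the processing of SREBPs cannot be read from mRNA.

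The promoters of the genes were searched for letters that these factors are known to bind. RefSeq promoter windows of the GRCr8 assembly, each with 250 bases before and 50 after an annotated start, matched 7 of the 8 genes (9 windows). The motifs searched, on both strands, were the sterol regulatory element core TCACNCCA, the E-box CACGTG, the CCAAT box CCAAT and the Sp1 box GGGCGG. The core letters were settled after these promoters had been seen. The stretches below were chosen because they hold the core, the E-box or paired CCAAT boxes. Capitals mark the core, the E-box and the CCAAT box, which reads ATTGG on the opposite strand. All bases run 5′ to 3′ on the strand of the gene and end before the annotated start.
Srebf2, chr7:115543127-115543197, plus strand: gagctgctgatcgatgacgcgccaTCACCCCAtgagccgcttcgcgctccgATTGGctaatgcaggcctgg
Mlxipl, chr12:27213765-27213815, minus strand: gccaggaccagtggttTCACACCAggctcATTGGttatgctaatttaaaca
Insig1, chr4:8057834-8057974, minus strand: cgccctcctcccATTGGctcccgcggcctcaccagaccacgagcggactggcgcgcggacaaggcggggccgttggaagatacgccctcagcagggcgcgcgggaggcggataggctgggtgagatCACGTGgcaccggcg
Scap, chr8:119184363-119184407, plus strand: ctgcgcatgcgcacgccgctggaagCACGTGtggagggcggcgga
Srebf1, chr10:45519085-45519155, minus strand: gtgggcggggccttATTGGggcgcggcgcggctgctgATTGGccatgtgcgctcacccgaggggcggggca
Mylip, chr17:19514526-19514586, minus strand: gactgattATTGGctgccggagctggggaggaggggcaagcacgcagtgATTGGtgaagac

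In its exact letters, the sterol regulatory element core stood in 3 of the 9 windows, those of 2 genes, Srebf2 and Mlxipl. In Srebf2 it spanned bases -156 to -149, and in Mlxipl bases -139 to -132, counted from the start. Over all 33469 rat promoter windows, 3.89% held the core. The letters were settled with the members' promoters in view, so this share is no test of the matches. Elements with other letters were not searched for, so the other members' windows may still hold some. In Srebf2 and Mlxipl an inverted CCAAT box followed the core, a box to which NF-Y, a common partner of SREBPs, binds. The E-box, the palindrome read by basic helix-loop-helix factors such as SREBP-1, stood in 2 of the 9 windows, those of Insig1 and Scap, against 6.42% of all windows. A CCAAT box stood in 8 of the 9 windows, against 37.5% of all windows, and in 6 of the 7 genes, all but Scap. A Sp1 box stood in 6 of the 9 windows, against 33.1%, and in 5 of the 7 genes. No match overlapped another in these genes. Srebf1 and Mlxipl had 2 windows each, and the stretches come from 1 of them, for Srebf1 that of the downstream start. The 2 Mlxipl windows overlap almost fully, so the core and CCAAT boxes of that gene are the same letters counted in both. These matches describe letters only, and binding was not measured.

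Library totals ran from 15065540 to 23743703 counts. All 10 hippocampal neuron markers had counts in every library. CPM are the counts of a gene divided by the library total, scaled to the usual fixed number of reads. Choroid plexus markers, 14 genes with the transthyretin gene Ttr among them and Otx2 at 0 in every library, summed to between 108.8 and 253.6 CPM in 11 libraries. They summed to 11031 CPM in sham day 1 replicate 1, to 2070 in TBI day 14 replicate 2 and to 8714 in TBI day 14 replicate 3. Calls of the genes named below that change when these 3 libraries are left out together are given both ways. That fit keeps only replicate 2 in sham day 1, and replicates 1 and 4 in TBI day 14. Its fewer rats and its choroid plexus content cannot be told apart as sources of a changed call. A fit without 1 sham rat of day 1 likewise keeps a single one at that day. In bulk tissue, fewer cells of a type and less RNA per cell cannot be told apart. The CPM were scaled for library composition and are not corrected for gene length, so they are compared between groups and not between genes.

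At day 1, none of the 8 regulators rose and 3 fell: Srebf2, Stard4 and Mlxipl. At day 14, Mlxipl rose, while Srebf2 and Insig1 fell. Scap, Insig2, Srebf1 and Mylip passed the test against sham at neither day. Called genes are those with an adjusted p under 0.05 in the edgeR quasi-likelihood test over all tested genes. The background was 19.1% of all genes called at day 1 (11.2% higher and 7.93% lower) and 4.43% at day 14 (4.07% higher and 0.365% lower). Values of the injured and sham rats did not overlap for 5 regulators at day 1, against 30.8% of all genes, and for 4 at day 14, against 15.0%. The median log2 change of the 8 was -0.52 at day 1 and -0.16 at day 14, where the medians over all genes were -0.02 and -0.03.

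**Figure D1:**
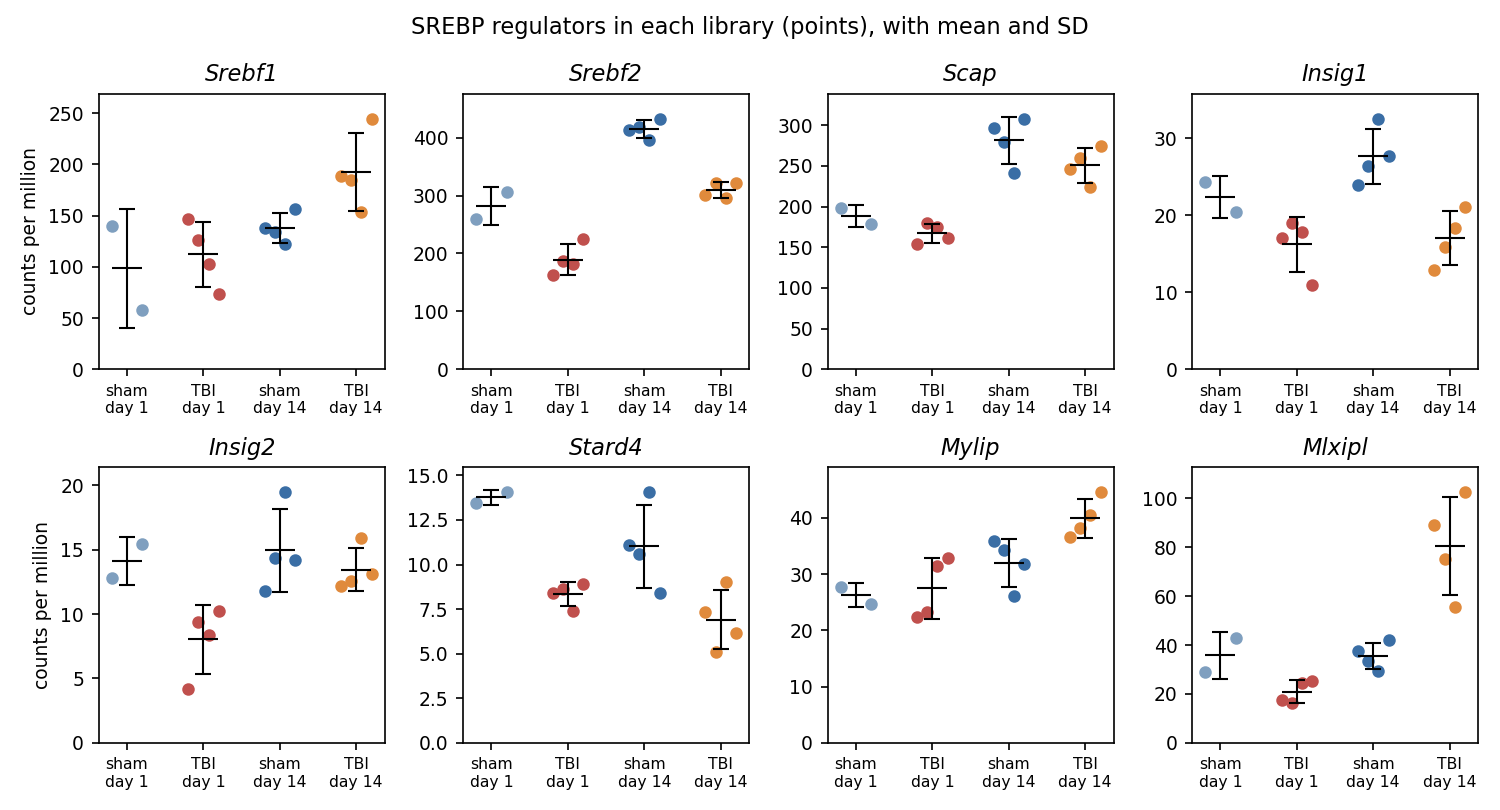
Level of each SREBP regulator (y axis, CPM from 0) in the 14 libraries, by group (x axis). Points are libraries, the long bar is the group mean and the whiskers are the SD. Srebf2 sat highest in sham rats of day 14 and lowest in injured rats of day 1, and Mlxipl stood above its sham rats only in injured rats of day 14.

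Among the transcription factors, Srebf2 had the tightest values. In sham rats it measured 259 and 306 CPM at day 1 and 414, 418, 396 and 433 CPM at day 14. In injured rats it measured 163, 187, 181 and 226 CPM at day 1 and 302, 321, 295 and 323 CPM at day 14. At each day every injured rat lay below every sham rat. Srebf2 fell 1.49-fold at day 1 (log2 change -0.58, SE 0.13, adjusted p = 0.0082) and 1.34-fold at day 14 (-0.42, SE 0.11, adjusted p = 0.0457). The day 14 call was lost when any single library of the comparison was left out, with changes from -0.44 to -0.38 and adjusted p from 0.0758 to 0.152, and without the 3 choroid plexus libraries (-0.39, adjusted p = 0.268). The day 1 call was lost without sham replicate 2 (-0.46, adjusted p = 0.125).

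Srebf1 did not follow Srebf2. Its 2 sham rats of day 1 measured 139.8 and 57.5 CPM, and the 4 injured rats, at 147, 126, 103 and 73.1 CPM, lay around them. At day 14 the sham rats measured 138, 134, 123 and 157 CPM and the injured rats 189, 185, 153 and 245 CPM. At day 14, 3 of the 4 injured rats were above every sham rat and the lowest one was just under the highest sham rat. The changes were 0.19 (SE 0.31, adjusted p = 0.701) at day 1 and 0.48 (SE 0.25, adjusted p = 0.453) at day 14, and neither passed. The day 1 value rested on which sham rat was kept. It was 0.96 (adjusted p = 0.0477) without replicate 1, the library high in choroid plexus markers, and -0.32 without replicate 2.

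Mlxipl, the ChREBP gene, gave the largest change of the 8 at day 14, in the direction opposite to day 1. At day 1 it measured 29.0 and 42.7 CPM in sham rats and 17.3, 16.3, 24.4 and 25.2 CPM in injured rats. At day 14 it measured 37.7, 33.5, 29.5 and 41.9 CPM in sham rats and 89.0, 75.2, 55.6 and 102.6 CPM in injured rats. All injured rats were below the sham rats at day 1 and above them at day 14, while the sham rats of the 2 days overlapped. Mlxipl fell 1.72-fold at day 1 (-0.79, SE 0.25, adjusted p = 0.0371) and rose 2.26-fold at day 14 (1.18, SE 0.21, adjusted p = 0.0025). The injury effects of the 2 days differed by -1.96 (day 1 minus day 14, SE 0.32, adjusted p = 0.00483). Mlxipl was the only one of the 8 called in that test, which called 3.68% of all genes (2.24% above 0 and 1.44% below).

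The day 14 rise of Mlxipl held with each of the 8 libraries of that comparison left out (1.04 to 1.34), and it was 1.45 without the 3 choroid plexus libraries (adjusted p = 0.000708). The day 1 fall was lost without sham replicate 2 (-0.48), without TBI replicate 1 (-0.71) and without TBI replicate 2 (-0.68). It was -1.05 without the 3 choroid plexus libraries, a fit that keeps sham replicate 2 as its only sham rat of day 1. Microglia and macrophage markers also moved at both days. Of 10 such genes, 5 rose and 2 fell at day 1, and 9 rose at day 14. Their sum was 346 and 595 CPM in sham and 791 to 1029 CPM in injured rats at day 1, and 415 to 518 CPM in sham and 1034 to 1897 CPM in injured rats at day 14. P2ry12, a receptor of homeostatic microglia and one of these 10 genes, fell at day 1 (-0.88, SE 0.24, adjusted p = 0.019). It rose at day 14 (1.25, SE 0.20, adjusted p = 0.00129). The other marker that fell at day 1, Tmem119 (-1.90, SE 0.37, adjusted p = 0.00299), was not called at day 14 (0.37, adjusted p = 0.748). The 5 markers that rose at day 1 rose at day 14 as well. Without the 3 choroid plexus libraries 7 of the 10 rose and 1 fell at day 1, and the day 1 fall of P2ry12 was lost (-0.59, adjusted p = 0.134), as it was without sham replicate 1 alone. The part of these markers in the Mlxipl values was not tested.

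**Figure D2:**
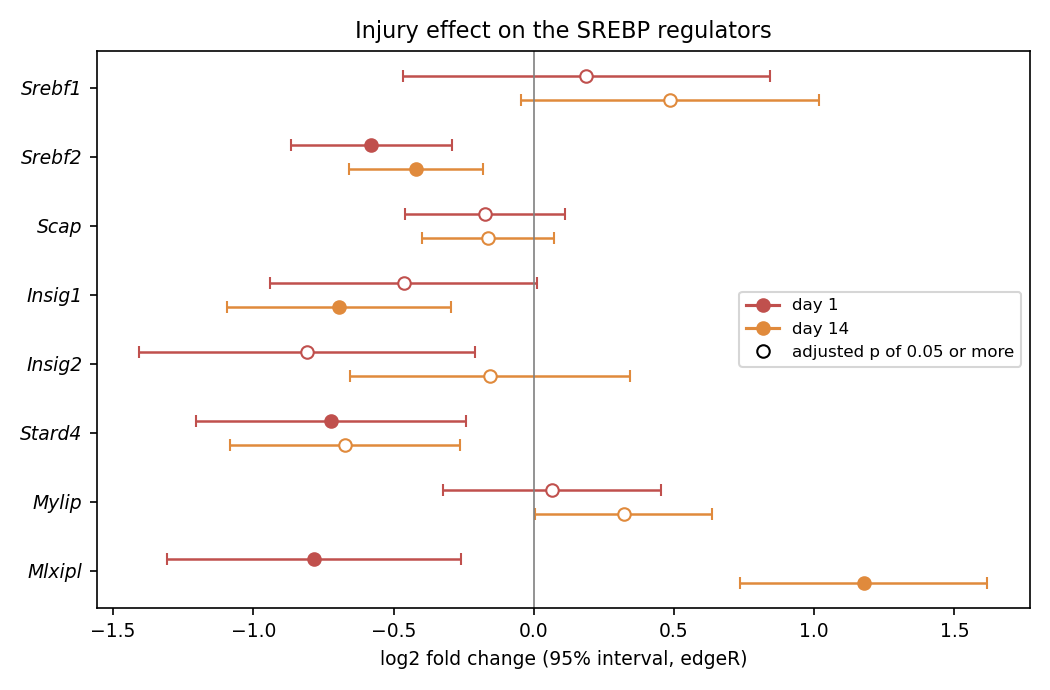
Injury effect on each SREBP regulator at day 1 (red) and day 14 (orange), as the log2 fold change of TBI against sham (x axis) with its 95% interval. Filled points passed an adjusted p of 0.05. The 2 intervals of Mlxipl lie on opposite sides of 0, and those of Srebf2 both lie below it.

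Among the genes that hold SREBPs back or move them, Scap, the escort, did not pass at either day. It measured 198 and 179 CPM in sham and 153 to 179.5 CPM in injured rats at day 1, and 241 to 308 CPM in sham and 224 to 274 CPM in injured rats at day 14. The changes were -0.17 (95% interval -0.46 to 0.11) and -0.16 (-0.40 to 0.07). In each comparison the groups overlapped.

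Insig1, the retention protein gene that is itself an SREBP target, measured 24.3 and 20.5 CPM in sham and 17.1, 19.0, 17.8 and 10.97 CPM in injured rats at day 1. At day 14 it measured 23.99, 26.4, 32.6 and 27.7 CPM in sham and 12.9, 15.9, 18.4 and 21.1 CPM in injured rats. Every injured rat lay below every sham rat of its day. Insig1 fell 1.62-fold at day 14 (-0.69, SE 0.19, adjusted p = 0.0479), and its day 1 change of -0.46 (SE 0.22, adjusted p = 0.156) did not pass. The day 14 call was lost in 7 of 8 fits that left out 1 library (-0.81 to -0.58 over the 8, adjusted p 0.0392 to 0.1601) and without the 3 choroid plexus libraries (-0.67, adjusted p = 0.286). It was kept without TBI replicate 4.

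Insig2, the SREBP-independent relative of Insig1, was apart at day 1 and not at day 14. At day 1 it measured 12.8 and 15.4 CPM in sham and 4.15, 9.38, 8.34 and 10.3 CPM in injured rats. At day 14 it measured 11.8, 14.4, 19.5 and 14.2 CPM in sham and 12.2, 12.5, 15.9 and 13.1 CPM in injured rats. Its changes were -0.81 (SE 0.28, adjusted p = 0.0567) at day 1 and -0.16 (SE 0.23, adjusted p = 0.89) at day 14, and neither passed. The test of the difference between days did not pass for Insig1 (0.23, 95% interval -0.40 to 0.86) or for Insig2 (-0.65, -1.44 to 0.13).

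Stard4 is the sterol carrier gene. At day 1 it measured 13.5 and 14.1 CPM in sham and 8.40, 8.65, 7.38 and 8.91 CPM in injured rats. At day 14 it measured 11.1, 10.6, 14.1 and 8.38 CPM in sham and 7.36, 5.10, 8.99 and 6.18 CPM in injured rats. The groups were apart at day 1, and at day 14 the highest injured rat passed the lowest sham rat. Stard4 fell 1.65-fold at day 1 (-0.72, SE 0.23, adjusted p = 0.0371), and its day 14 change of similar size (-0.67, SE 0.19, adjusted p = 0.0675) did not pass. The day 1 call was lost in 5 of the 6 fits that left out 1 library, all but the one without TBI replicate 4, at changes of -0.76 to -0.67, and in the fit without the 3 choroid plexus libraries (-0.77, adjusted p = 0.0599).

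Mylip measured 27.8 and 24.7 CPM in sham and 22.3, 23.2, 31.4 and 32.9 CPM in injured rats at day 1. At day 14 it measured 35.9, 34.2, 26.2 and 31.8 CPM in sham and 36.7, 38.1, 40.5 and 44.6 CPM in injured rats. The groups overlapped at day 1 and were just apart at day 14, with injured rats above. The changes were 0.06 (SE 0.18, adjusted p = 0.831) and 0.32 (SE 0.15, adjusted p = 0.366), and neither passed.

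Ratios of counts within a library do not depend on its depth. The ratio of Srebf1 to Srebf2 counts was 0.310 to 0.362 in sham and 0.519 to 0.758 in injured rats at day 14. At day 1 it was 0.539 and 0.188 in sham and 0.324 to 0.900 in injured rats. The 2 groups were apart at day 14 and overlapped at day 1. The ratio of Insig1 to Insig2 was 1.67 to 2.03 in sham and 1.06 to 1.61 in injured rats at day 14, again apart. That of Mlxipl to Srebf1 was 0.241 to 0.274 in sham and 0.363 to 0.472 in injured rats at day 14. These ratios were chosen after the values had been seen and are given as a description.

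**Figure D3:**
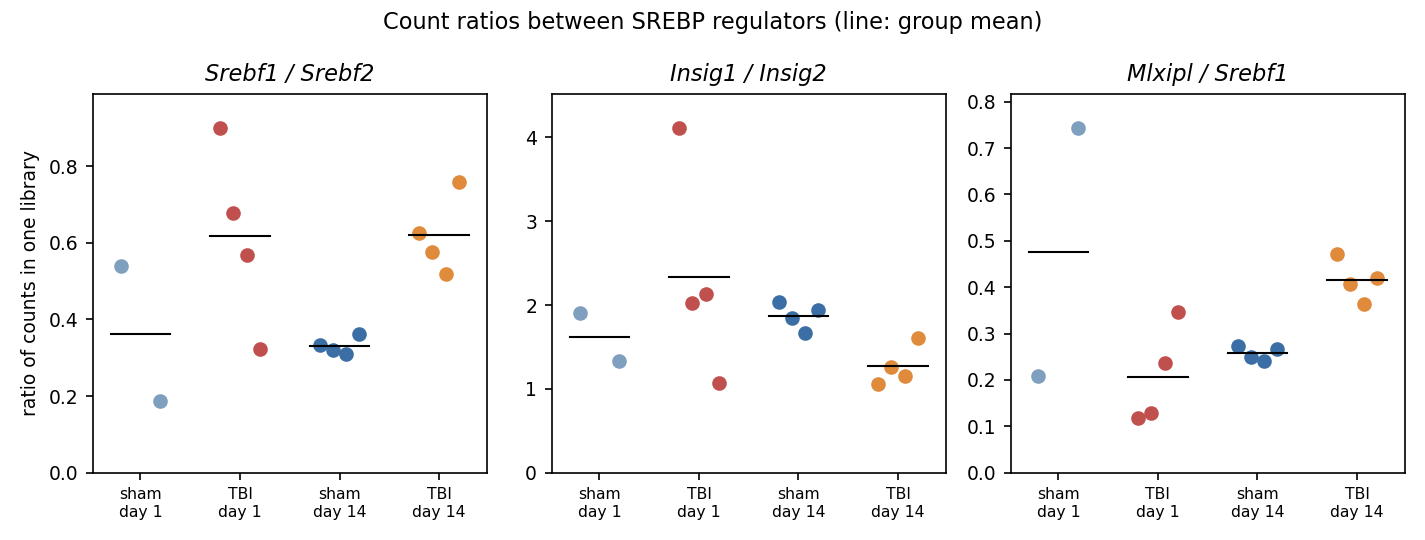
Ratio of counts between pairs of SREBP regulators within each library (y axis from 0), by group (x axis). Points are libraries and lines are group means. In all 3 panels the sham and injured rats of day 14 do not overlap, and those of day 1 do.

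The study set its time courses against the sham rats of day 14. Against that baseline, 5 regulators were lower in injured rats at day 1, in a comparison that called 46.0% of all genes (25.0% higher and 21.0% lower) and shares its sham rats with the day 14 comparison. Srebf2 was 2.19-fold lower (-1.13, SE 0.11, adjusted p = 2.95e-06) and Scap 1.68-fold lower (-0.75, SE 0.11, adjusted p = 8.56e-05). Insig1 (-0.77, adjusted p = 0.00374), Insig2 (-0.90, adjusted p = 0.00657) and Mlxipl (-0.77, adjusted p = 0.00697) were the others. For these 5 genes the injured and baseline rats did not overlap, against 40.0% of all genes. Stard4 (-0.40), Srebf1 (-0.30) and Mylip (-0.22) did not pass. All 5 calls held with each of the 8 libraries left out in turn.

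The sham groups also differed from each other. Sham rats of day 1 had less Srebf2 (-0.55, SE 0.14, adjusted p = 0.0158) and less Scap (-0.58, SE 0.14, adjusted p = 0.0123) than sham rats of day 14, with no overlap in either gene. This comparison called 19.1% of all genes (11.3% higher and 7.88% lower), and 41.5% of all genes did not overlap. The other 6 regulators did not pass, from Srebf1 at -0.48 (adjusted p = 0.287) to Stard4 at 0.32 (adjusted p = 0.342). Without sham day 1 replicate 1 the Srebf2 difference was -0.44 (adjusted p = 0.0999) and that of Srebf1 was -1.26 (adjusted p = 0.0223). Without the 3 choroid plexus libraries these were -0.43 (adjusted p = 0.142) and -1.25 (adjusted p = 0.0356). Without sham day 1 replicate 2 the Scap difference was -0.50 (adjusted p = 0.102).

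The enzymes of sterol synthesis, the main SREBP-2 targets, were lower at day 14. Srebf2 (-0.42) and Insig1 (-0.69) were also called lower then. Those calls were kept in 0 and 1 of the 8 fits that left out 1 library. At day 1 Srebf2 changed by -0.58. A link between Srebf2 and these enzymes was not tested. Of 20 genes tested, 3 fell and none rose at day 1 (median log2 change -0.18), and 8 fell and none rose at day 14 (median -0.60, with all 20 below 0). Called lower genes were 7.93% and 0.365% of all genes at these days. Hmgcs1, the HMG-CoA synthase gene, went from 279 ± 31.6 CPM in sham to 149 ± 15.2 CPM in injured rats at day 14 (SD, n = 4 each). It fell by 0.91 on the log2 scale (SE 0.15, adjusted p = 0.00194). Cyp51, a sterol demethylase, fell by 0.82 (SE 0.16, adjusted p = 0.00483). Fdft1, the squalene synthase gene, fell at both days, by 0.43 at day 1 (SE 0.14, adjusted p = 0.0421) and by 0.70 at day 14 (SE 0.11, adjusted p = 0.00146). The day 1 change of Fdft1 was lost in 5 of 6 fits that left out 1 library (-0.52 to -0.32) and without the 3 choroid plexus libraries (-0.33, adjusted p = 0.211). Cyp51 was not called without those 3 (-0.79, adjusted p = 0.0725). The day 1 count of 3 was 2 without them. The day 14 count of 8 was 5 without them, 5 at an adjusted p of 0.01, 13 with DESeq2 and 12 with only the groups compared.

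Fatty acid synthesis genes answer to SREBP-1 and ChREBP. Of 16 tested, 1 rose and 1 fell at day 1, and none rose and 1 fell at day 14. Each of these calls is 6.25% of the list. Over all genes 11.2% rose and 7.93% fell at day 1, and 4.07% rose and 0.365% fell at day 14. Mid1ip1, whose product activates acetyl-CoA carboxylase, rose by 0.57 (SE 0.17, adjusted p = 0.026) and Acacb, which encodes the mitochondrial form of that enzyme, fell by 1.15 (SE 0.29, adjusted p = 0.0138). Acly, the ATP citrate lyase gene, fell by 0.43 at day 14 (SE 0.11, adjusted p = 0.0423). The medians of the list were -0.27 and -0.15. The day 1 median rested on sham replicate 1 and was 0.00076 without that library and -0.0094 without the 3 choroid plexus libraries. In the latter fit Acacb was not called (-0.91, adjusted p = 0.0998), Gpam, a glycerolipid synthesis gene, was called higher (0.97, adjusted p = 0.0455), and Acly was not called (-0.42, adjusted p = 0.183). The Acacb call was also lost without sham replicate 1 alone, the Mid1ip1 call was lost without sham replicate 2 (0.30, adjusted p = 0.356), and the Acly call was lost with any single library of day 14 left out (-0.48 to -0.36).

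**Figure D4:**
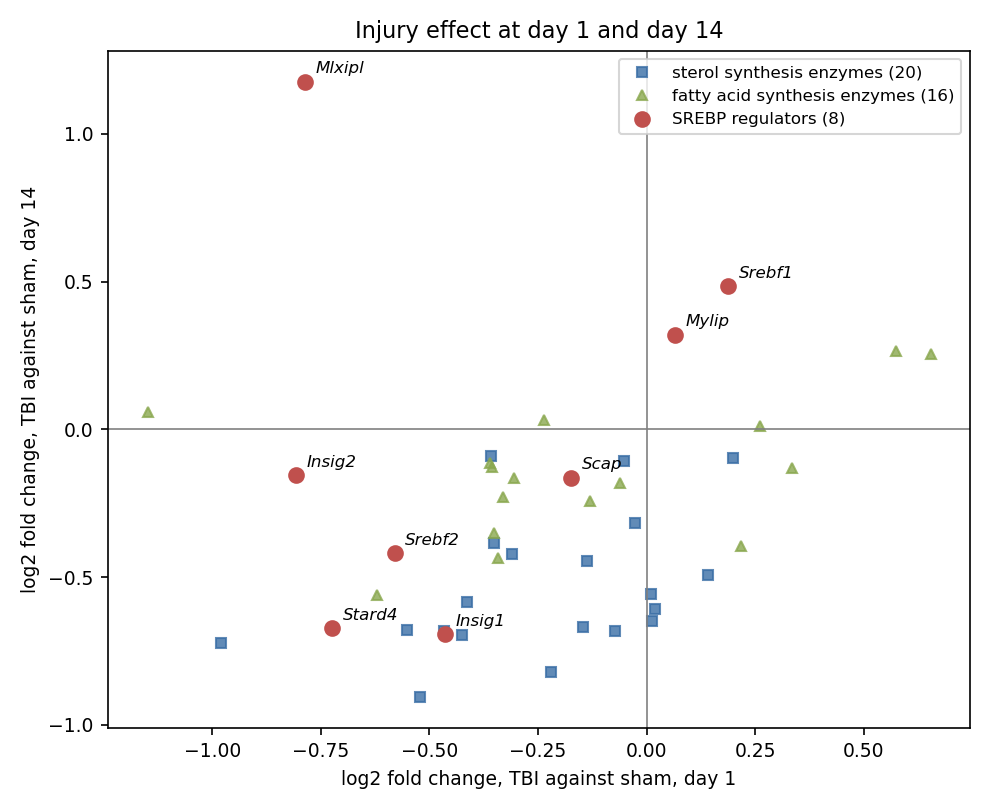
Log2 fold change of TBI against sham at day 1 (x axis) and day 14 (y axis) for the 8 SREBP regulators (circles, named), 20 sterol synthesis genes (squares) and 16 fatty acid synthesis genes (triangles). All 20 squares lie below 0 on the day 14 axis, with Srebf2, Insig1 and Stard4 among them, while Mlxipl alone lies to the left of 0 and far above it.

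Of 15 tested genes for SREBP transport, cleavage and degradation, Sec23b rose by 0.99 (SE 0.18, adjusted p = 0.00167) and Sec23a fell by 0.78 (SE 0.25, adjusted p = 0.0444) at day 1. These are 2 forms of a coat protein of vesicles leaving the endoplasmic reticulum. Each direction at day 1 was 6.67% of the list, against 11.2% higher and 7.93% lower over all genes. None of the 15 passed at day 14, when 4.43% of all genes were called. The Sec23a call was lost in 4 of 6 fits that left out 1 library, down to -0.29 without sham replicate 2.

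Of 12 LXR receptors, partners and targets, 1 rose at day 1, and 1 rose and 1 fell at day 14. Each was 8.33% of the list, against 11.2% of all genes higher at day 1 and 4.07% higher and 0.365% lower at day 14. Nr1h3, the gene of LXR alpha, rose 2.80-fold at day 1 (1.48, SE 0.30, adjusted p = 0.00335). At day 14 Abca1, the cholesterol efflux pump and an LXR target, went from 48.6 ± 4.74 to 112 ± 42.9 CPM (SD, n = 4 each) and rose 2.31-fold (1.21, SE 0.21, adjusted p = 0.0025). Rxrg, a retinoid receptor that can partner LXR, fell 2.18-fold (SE of the log2 change 0.27, adjusted p = 0.0271). The Rxrg call was lost in 7 of 8 fits that left out 1 library, all but that without TBI replicate 3, and without the 3 choroid plexus libraries, where the change was -1.20 (adjusted p = 0.106). The Nr1h3 call was lost without sham replicate 2 (1.12, adjusted p = 0.0677).

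A further list held 8 tested genes: ChREBP partners, ChREBP targets and factors that bind Max. Mxi1, a Max-binding repressor, fell by 0.41 at day 1 (SE 0.12, adjusted p = 0.0319). Txnip, a ChREBP target, rose by 0.78 at day 14 (SE 0.18, adjusted p = 0.0218). Each was the only call of its day (12.5% of the list). Over all genes, 7.93% were lower at day 1 and 4.07% higher at day 14. The Mxi1 call was lost without the 3 choroid plexus libraries (-0.23, adjusted p = 0.324), without sham replicate 1 alone and without TBI replicate 2. The Txnip call was lost in 4 of 8 fits that left out 1 library (0.65 to 0.90 over the 8), and without the 3 libraries it was 1.02. Of 15 intracellular sterol carriers beside Stard4, Osbpl9 rose by 0.71 and Osbpl1a fell by 0.52 at day 1, both genes of oxysterol-binding protein relatives (adjusted p = 0.00384 and 0.00654). The Osbpl1a call was lost without sham replicate 2 (-0.43, adjusted p = 0.0909). Npc2, which hands cholesterol out of lysosomes, rose 3.45-fold at day 14 (1.79, SE 0.24, adjusted p = 0.000314), from 107 ± 19.5 to 371 ± 73.7 CPM (SD, n = 4 each). Of the carriers, 6.67% rose and 6.67% fell at day 1, against 11.2% and 7.93% of all genes. At day 14, 6.67% rose, against 4.07%.

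Other cell type markers moved with these groups as well. Of 10 neuron markers and 10 oligodendrocyte markers, 5 of each list fell at day 1 and none of either list passed at day 14. Without the 3 choroid plexus libraries, 4 neuron markers fell and 1 rose, and 2 oligodendrocyte markers fell, at day 1. Summed neuron markers were 8468 and 9783 CPM in sham and 3070 to 6683 CPM in injured rats at day 1. Summed oligodendrocyte markers were 11497 and 15509 CPM in sham and 4360 to 16050 CPM in injured rats at day 1. At day 14 the neuron sums overlapped, at 6997 to 8686 CPM in sham and 6050 to 7394 CPM in injured rats. Summed astrocyte markers, 9 genes with the reactive marker Gfap among them, were higher in injured rats at both days. The sums were 4675 and 7271 against 11310 to 17530 CPM, and 4439 to 5573 against 7645 to 11520 CPM. The median log2 change of the 9 genes was -0.31 at day 1 and -0.21 at day 14, while Gfap rose by 3.10 and 2.06. Of these 9 genes, 2 rose and 1 fell at day 1 and 1 rose at day 14, and without the 3 libraries 2 rose and none fell at either day. Endothelial markers gave 1 called gene of 9 at day 1 (3 without the 3 libraries) and none at day 14. The part of these cell types in the regulators' values was not tested.

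For the regulators called in any comparison, the genes of nearest pattern were those with the smallest root mean square difference in centred log2 CPM over the 14 libraries. Those of Srebf2 were Apc2 (0.113), Emc1 (0.113) and Atp2a2 (0.119), where the median over all genes was 0.573. Those of Scap were Atg9a (0.0848), Atf6b (0.0919) and Akap1 (0.101), and those of Insig2 were Cdk5r1 (0.154), Nptxr (0.157) and Mgat3 (0.16). The match was looser for Insig1, nearest to Gabrg1 (0.227), Cntnap1 (0.235) and Pnpla3 (0.247), and for Stard4, nearest to Rrm2b (0.218), Map2 (0.22) and Acly (0.223). Mlxipl had the widest spread of these 6, and its nearest genes, Igsf10 (0.3), Slco2b1 (0.319) and P2ry13 (0.344), lay farthest from it. Its median over all genes was also the largest of the 6, at 0.866, where those of Insig1 and Stard4 were 0.547 and 0.554. These distances carry no test.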

How the data were processed

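Per the labels and the study's methods, the authors aligned single-end 50-bp reads of stranded mRNA libraries to the rat genome rn5 with STAR 2.4.2a and counted them per gene with featureCounts 1.5.0 on UCSC annotation. Whether counting used strand is not given in the sources used here. The deposited values are whole read counts per gene, without normalization. Genes were kept by edgeR's filterByExpr (edgeR 4.0.16, R 4.3.3), scaled by TMM, and tested with the quasi-likelihood F test, with 1 mean for each of the 4 groups over all 14 libraries and two-sided Benjamini-Hochberg adjustment over 12875 genes at 0.05. The 2 sham libraries of day 1 thus borrowed their spread from all groups. CPM are TMM-scaled, and 95% intervals are for the log2 change. Alternatives included limma-voom (limma 3.58.1), as the study used, and DESeq2 1.42.0. From each pathway list, up to 3 called genes per direction and day, those of largest change, were named, except some that are not reported here; Fdft1 at day 14 was added after its values were seen. The 8 genes, pathway lists and markers were chosen with earlier results of these data known. Replicates are labelled as separate samples, and no pair agreed within sampling noise. H3K4me3 peaks were not used here.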

Additional observations from a re-analysis of the deposited data

Results flagged for a closer look

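The injury effect on Mlxipl differed between the days by -1.962 on the log2 scale (day 1 minus day 14), a difference that passed its own test (edgeR, adjusted p = 0.00483). All 4 injured rats lay below both sham rats at day 1, and all 4 lay above the 4 sham rats at day 14. Of 24 sets of values, 8 genes in each of the 3 groups with 4 libraries, none held a value far from the others by Dixon's test. With 4 values in a set, this test finds only very wide gaps. The sham rats of day 1 were too few to enter it.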

How the results depend on the processing

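The number of regulators called at day 1 was 3, and it was 0 when only the groups compared entered the fit, 1 at an adjusted p of 0.01, 6 with all 6 sham rats as the baseline, and 0 to 4 with 1 library left out (0 without sham replicate 2 and 1 without TBI replicate 1 or 2). At day 14 it was 3, and 1 with limma-voom, without the filter on low counts, with at least 10 counts in every library, at 0.01, with the level of choroid plexus markers added to the model and, in a setting chosen after seeing the data, without the 3 choroid plexus libraries. It was 1 to 2 with 1 library of day 14 left out. It was 4 with DESeq2 (1 higher and 3 lower) and 4 with only the groups compared (2 higher, with Srebf1 added at 0.52, and 2 lower). The difference between days gave 1 and the day 14 baseline 5 in every setting run. Between sham groups it was 2, and 0 at 0.01 and 1 to 2 with 1 library left out. Of 253 alternatives for called results, 202 kept the call, 51 lost it and none changed sign. The cause of these changes was not tested.

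Signs changed only in values that had not passed. With all sham rats as the baseline, Srebf1 at day 1 was -0.15, Mylip at day 1 -0.13 and Scap at day 14 0.0047. With the choroid plexus level in the model, the difference between days was 0.015 for Srebf1 and 0.062 for Stard4. Without the 3 libraries it was 0.28 for Srebf1, and the sham difference of Insig2 was 0.047. With at least 10 counts, the difference between days of Scap was 0.0071 and the sham difference of Mlxipl -0.018. With 1 library left out, Srebf1 at day 1 ranged from -0.32 to 0.96 and Mylip from -0.032 to 0.15. The difference between days ranged from -0.80 to 0.48 for Srebf1, -0.095 to 0.065 for Scap and -0.19 to 0.073 for Stard4. The sham difference ranged from -1.26 to 0.021 for Srebf1, -0.23 to 0.066 for Insig2 and -0.29 to 0.26 for Mlxipl.

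Groups share replicate numbers, but the 18 same-numbered pairs correlated at -0.348 to 0.243, with 5 over 0.1, so they were not taken as pairs. Batches shared between groups were not tested. The study reports a batch correction for its time courses, while the main model here had no batch term. With a replicate block, 4 regulators were called at day 1 and 2 at day 14. Under this block Mylip at day 1 was -0.011, the difference between days of Scap 0.0064 and the sham difference of Insig2 0.11. With 2 sham rats at day 1, Insig2 (adjusted p = 0.0567) passed with limma-voom, DESeq2 and the block, and Stard4 at day 14 passed with DESeq2.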
